A study of Mus musculus with 12 samples.

Results

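The genes described here code for the subunits of respiratory chain complexes II, III and IV, of cytochrome c and of ATP synthase (complex V) that are encoded in the nucleus. They were taken by name as a list of 41 genes, by a rule that uses no measured value, with 4 genes of complex II, 9 of complex III, the somatic cytochrome c gene Cycs, 13 of complex IV and 14 of complex V. All 41 were found among the 43629 gene identifiers of the count files, and 40 of them were among the 15059 genes with enough reads to be tested. The remaining gene, Atp5l (subunit g of ATP synthase), had 0.615, 0.551 and 0.873 CPM (reads scaled to library size) in the AGHMT libraries, no read in the 3 GHMT libraries, 0.595, 0.403 and 0.859 CPM in the CM libraries and 0.184, 0.203 and 0.183 CPM in the E libraries.

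RNA sequencing counts were available for 12 mouse libraries of strain C57BL/6, 3 in each of 4 groups. The AGHMT-labelled libraries came from embryonic fibroblasts (MEFs) treated for 3 weeks with Akt, Gata4, Hand2, Mef2c and Tbx5, and the GHMT libraries from MEFs treated for the same time with these factors without Akt. Both kinds of treated cells were sorted on αMHC-GFP, in which the promoter of the cardiac myosin gene Myh6 drives a green fluorescent protein, so each of these libraries holds reporter-positive cells from a culture. The CM libraries came from isolated adult ventricular cardiomyocytes, and the E libraries from MEFs given an empty vector for 3 weeks. The labels of CM and E name no sort, so the treatment and the sort cannot be told apart in comparisons of AGHMT or GHMT with E. The sources used here give neither the age of the adult mice nor the promoter of the vectors. No label says whether the 3 libraries of a group came from separate cultures or animals, and p-values therefore measure only the spread between these libraries, which may be technical.

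Several facts of the libraries bear on every value below. Gene reads per library numbered 14386407 to 18493989 in AGHMT, 1872558 to 2200815 in GHMT, 5120230 to 15952646 in CM and 15971154 to 33552138 in E libraries. Those of mitochondrially encoded genes made up 39.9% ± 3.07 of them in AGHMT, 49% ± 22.2 in GHMT, 51.6% ± 10.4 in CM and 5.79% ± 1.92 in E (SD, n = 3 libraries each). The share was 72.2% in GHMT 1 (exact 95% interval 72.1% to 72.2%), which held 528 reads of the 41 genes. CM 3 and E 1 had a higher share of reads in GC-rich transcripts than the other libraries of their groups. Of the reads of tested nuclear genes, 59.4% lay in transcripts of at least 50% GC in CM 3 (59.3% to 59.5%) and 43.2% in E 1 (43.2% to 43.2%). The group means were 18.8% ± 2.15 in AGHMT, 15.6% ± 1.94 in GHMT, 43.7% ± 14 in CM and 33.7% ± 9.62 in E. Results are therefore also given without GHMT 1, CM 3 and E 1 together. Intervals of shares cover counting error only.

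The labels of the treated groups were checked against the factors they name. Gata4, Mef2c and Tbx5 were higher than in E in AGHMT (log2 fold changes 5.69, 3.46 and 4.50) and in GHMT (5.49, 3.86 and 5.23), with an adjusted p of at most 2.43e-04. Hand2 passed in neither, at 1.40 (adjusted p = 0.115) for AGHMT and 1.29 (adjusted p = 0.166) for GHMT. Akt1 had 7.30, 12 and 19.6 CPM in AGHMT-labelled libraries and 1.31, 13.5 and 13.7 CPM in GHMT libraries (log2 fold change 0.34 ± 0.79 (SE), adjusted p = 0.786). Akt1 was lower in AGHMT than in E by 2.27 on the log2 scale (adjusted p = 0.0227). In GHMT against E its log2 fold change was -2.62 (adjusted p = 0.0146). The Akt1 counts thus showed no excess in the libraries labelled AGHMT, and the label does not say which Akt gene was given. Hand2, which both labels name, did not pass against E either, so such counts cannot decide whether a factor was given. Every difference drawn from the AGHMT label is a difference of the libraries that carry it. The 10 cardiomyocyte markers summed to 8551 to 9128 CPM in AGHMT, 3563 to 3780.5 CPM in GHMT, 49093 to 70041 CPM in CM and 232 to 324 CPM in E, and all 10 were higher in AGHMT, in GHMT and in CM than in E. Fibroblast markers (10 genes) summed to 8427 to 9477 CPM in AGHMT, 4851 to 7019.7 CPM in GHMT, 1012 to 1226 CPM in CM and 11421 to 13736 CPM in E. Endothelial markers (8 genes) summed to 62.6 to 73.7 CPM in AGHMT, 2.62 to 12 CPM in GHMT, 485 to 696 CPM in CM and 8.52 to 11.1 CPM in E, and 5 of the 8 were higher in AGHMT than in GHMT. Macrophage markers (8 genes) summed to 32.0 to 46.7 CPM in AGHMT, 1.31 to 6.19 CPM in GHMT, 85.7 to 179.9 CPM in CM and 12.3 to 39.5 CPM in E, with Cd68, Adgre1, Cd14, C1qa and C1qb without a read in GHMT. Smooth muscle markers (5 genes) summed to 378 to 584 CPM in AGHMT, 311 to 490.1 CPM in GHMT, 145 to 1072 CPM in CM and 1085 to 5509 CPM in E. Mast cell markers (5 genes) summed to 310.4 to 339.5 CPM in AGHMT, 65.5 to 162 CPM in GHMT, 7.21 to 10.3 CPM in CM and 0.217 to 0.489 CPM in E, with Cma1, Cpa3, Tpsb2 and Kit without a read in GHMT and Tpsb2 without one in AGHMT. Erythroid markers (5 genes) summed to 0.845 to 2.42 CPM in AGHMT, 0 to 0.521 CPM in GHMT, 18.1 to 23.0 CPM in CM and 0.101 to 0.397 CPM in E. These lists moved with several of the comparisons below, and their part in those results was not tested.

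The respiratory chain sits in the inner mitochondrial membrane. Complex II (succinate dehydrogenase) passes electrons from succinate to ubiquinone, complex III passes them on to the small carrier protein cytochrome c, and complex IV (cytochrome c oxidase) uses them to reduce oxygen. Complexes III and IV pump protons, and ATP synthase lets these flow back through its membrane part (Fo) to drive the making of ATP in its head (F1). Complex II is encoded wholly in the nucleus, whereas III, IV and V each combine nuclear subunits with subunits made from mitochondrial DNA. The adult heart beats on oxidative phosphorylation and is densely packed with mitochondria, and in heart and skeletal muscle some complex IV subunits are replaced by tissue-specific isoforms.

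Transcripts of the 41 genes took the largest share of non-mitochondrial gene reads in adult cardiomyocytes and the smallest in GHMT cells. The share was 0.499% ± 0.0845 in AGHMT, 0.139% ± 0.0576 in GHMT, 3.99% ± 0.596 in CM and 0.357% ± 0.0595 in E (SD, n = 3 libraries each). Every AGHMT library lay above every GHMT library and above every E library, every CM library lay above all others, and every GHMT library lay below every E library. Complex V held the largest part of it in every group, at 0.259% ± 0.040 in AGHMT, 0.0619% ± 0.0367 in GHMT, 1.87% ± 0.156 in CM and 0.182% ± 0.0256 in E. Cycs departed from this order. It held 0.00618% ± 6.5e-04 of the reads in AGHMT, 0.0054% ± 6.6e-04 in GHMT, 0.0292% ± 0.017 in CM and 9.18e-04% ± 3.99e-04 in E, so that AGHMT and GHMT overlapped and both lay above E. In RNA from bulk samples, fewer cells that hold a transcript and less of it per cell cannot be told apart.

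**Figure D1:**
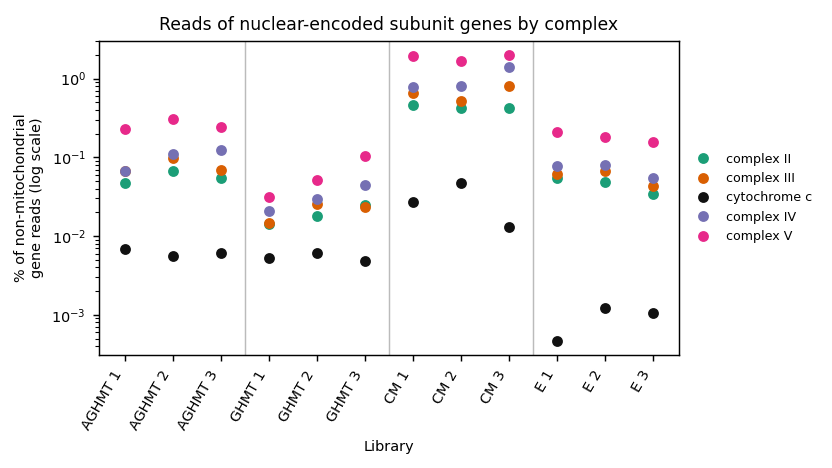
Share of non-mitochondrial gene reads (percent, log axis) that fell in the subunit genes of each complex, with 1 point per library and the libraries of AGHMT, GHMT, CM and E from left to right. CM libraries are the highest for every complex, GHMT libraries the lowest for complexes II, III, IV and V, and E libraries the lowest for cytochrome c.

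Counts were compared gene by gene with edgeR's quasi-likelihood test over all 15059 genes, and a member counted as changed where the adjusted p was under 0.05. Values printed beside an adjusted p are log2 fold changes unless named otherwise. In AGHMT against GHMT, 17 of the 40 tested members were higher and none was lower, where 13.2% of all tested genes were higher and 4.58% lower. At an unadjusted p under 0.05, 1 member (Atp5d) was lower, and DESeq2 and limma also called none lower. The median log2 fold change was 1.64 over the members and 0.63 over all genes tested. Of the 17, Sdha, Uqcrc2, Atp5a1, Atp5b, Atp5c1 and Atp5g3 were called under each of the 26 alternatives, and Uqcrc1, Atp5g1 and Atp5g2 rest on at most 3 pooled reads in GHMT. Here and below, the share of all called genes that held under every alternative is not given. In GHMT against E, 4 members were higher and 18 lower (all genes 19.8% higher and 32.9% lower), with a median of -1.70 against -1.06 over all genes. Of these calls, Uqcrc1, Atp5e, Atp5g2 and Atp5k rest on at most 3 pooled GHMT reads. In AGHMT against E, 11 members were higher and 6 lower (all genes 21.9% higher and 24.6% lower), with a median of 0.42 against -0.16 over all genes.

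The adult cardiomyocytes stood apart from all 3 MEF groups. In CM against E, 36 of 40 members were higher and none lower (all genes 19.5% higher and 22.5% lower), with a median log2 fold change of 3.63 against -0.26 over all genes, and 29 of the 36 were called under each of the 26 alternatives. GHMT against CM gave 39 members lower and none higher (all genes 34.7% lower and 23.8% higher), with medians of -5.53 and -0.89. AGHMT against CM gave 38 lower and none higher (all genes 24.4% lower and 23.7% higher), with medians of -3.06 and -0.05. No member passed an unadjusted p of 0.05 in the empty direction of these 3 comparisons, and neither DESeq2 nor limma called one. The pairs of groups share libraries (AGHMT against GHMT shares its GHMT libraries with GHMT against E, for example), so the comparisons are not independent of each other.

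Scaling moves these values as a whole. Total counts in place of trimmed-mean (TMM) scaling shifted the median of all genes by between -1.32 and 0.54 in the 6 comparisons, DESeq2's size factors by between -0.73 and 0.40 and TMM without mitochondrial genes by between -0.42 and 0.33. The members' median minus that of all genes was 1.0 to 1.04 in AGHMT against GHMT, -0.76 to -0.65 in GHMT against E, 0.54 to 0.59 in AGHMT against E and 3.89 to 3.95 in CM against E under the 4 scalings. A scaling moves all genes of a library nearly alike, so this difference could hardly change and is no test of the scaling. The members' own median in AGHMT against E changed sign under total counts, at -0.40. Without GHMT 1, CM 3 and E 1, the calls were 13 higher and 1 lower in AGHMT against GHMT, 5 and 15 in GHMT against E, 14 and 7 in AGHMT against E, 36 and 0 in CM against E, 0 and 36 in GHMT against CM, and 0 and 36 in AGHMT against CM. The calls over all genes without these libraries are not given, so a shift shared by all genes cannot be told apart here.

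By mean CPM, CM was the highest group for 39 of the 41 genes. The order CM, E, AGHMT, GHMT held for 15 genes, the order CM, AGHMT, E, GHMT for 12 and the order CM, AGHMT, GHMT, E for 8. The exceptions to CM as the highest group were Atp5g2, which was highest in E, and Atp5l, which was highest in AGHMT. These orders were not counted over all genes, so they describe the members and do not set them apart.

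**Figure D2:**
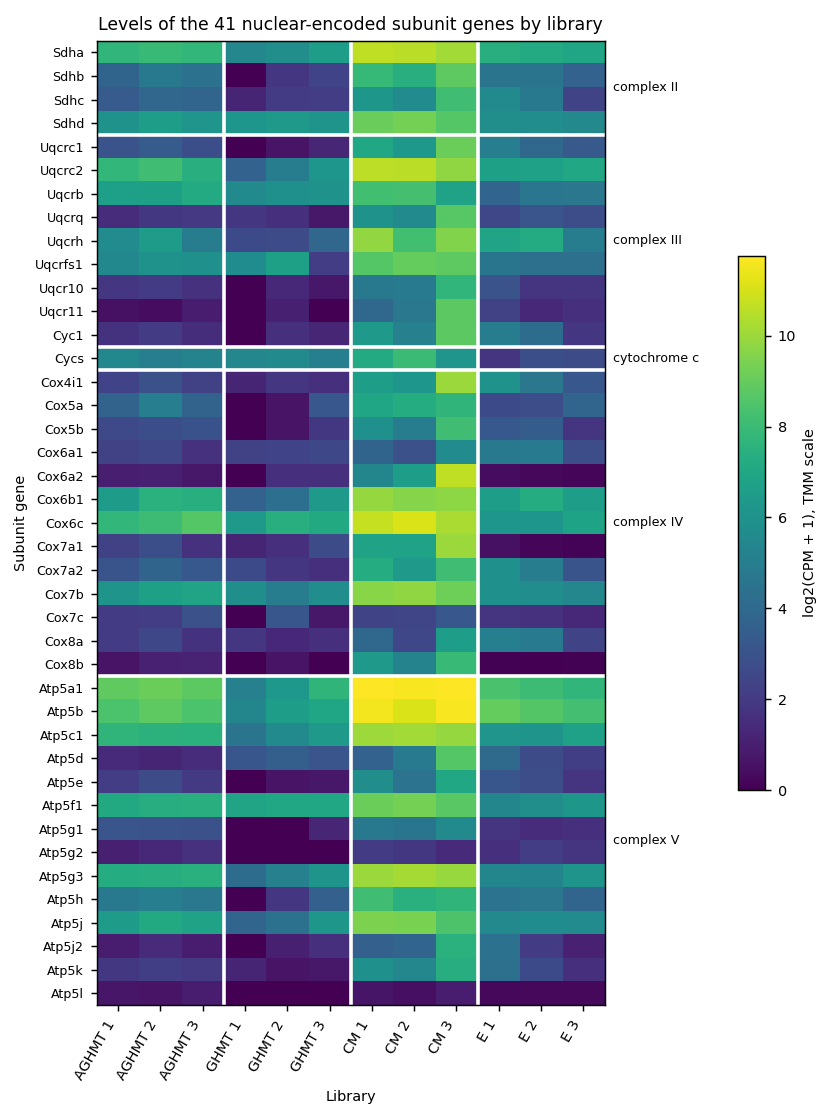
Level of each of the 41 genes in every library as log2(CPM + 1), grouped by complex, with the libraries in the order AGHMT, GHMT, CM, E. Brighter colours mark higher levels. The CM columns are the brightest for most genes, and the heart isoform genes Cox6a2, Cox7a1 and Cox8b stand near 0 in E.

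**Figure D3:**
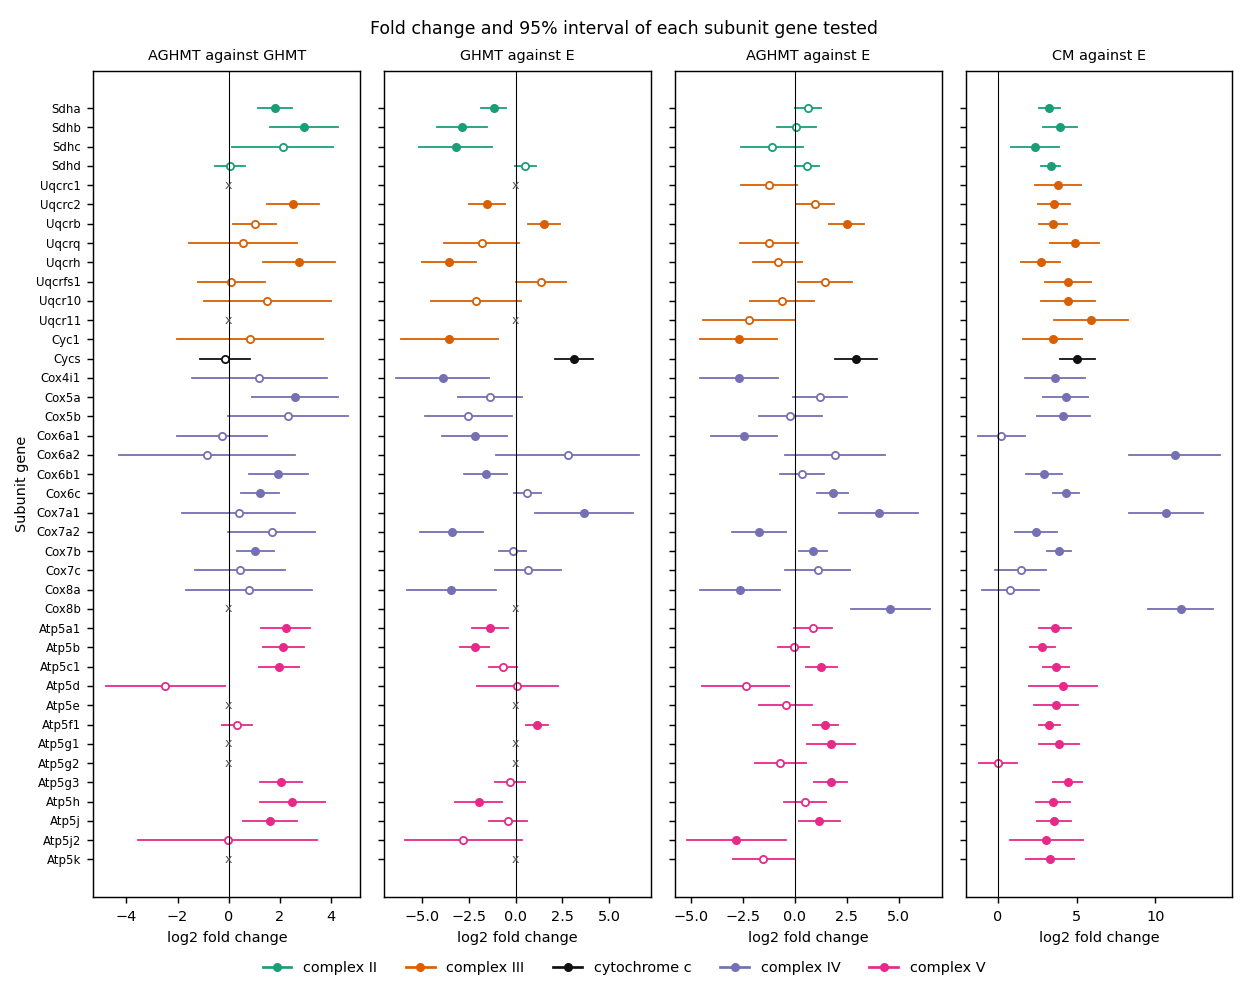
Log2 fold change of each tested member in AGHMT against GHMT, GHMT against E, AGHMT against E and CM against E, with 95% intervals. Filled points passed the adjusted p of 0.05 and open points did not. In the panels with GHMT, crosses mark 7 genes with at most 3 pooled reads in GHMT, for which no fitted value is drawn there. In CM against E 36 filled points lie above 0 and none below.

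Complex II has 4 subunits, of which Sdha (the flavoprotein that oxidises succinate) and Sdhb (the iron-sulphur protein) form the part that faces the matrix, and Sdhc and Sdhd anchor it in the membrane. Sdha, the most abundant of them, had 211, 239.6 and 222 CPM in AGHMT, 41.9, 55.2 and 92.8 CPM in GHMT, 1576, 1489 and 1101 CPM in CM and 167, 147 and 119 CPM in E. No AGHMT library overlapped with a GHMT library, and CM lay above all others. Sdha was higher in AGHMT than in GHMT by 1.81 ± 0.31 (SE), adjusted p = 0.00235, lower in GHMT than in E, at -1.17 ± 0.31 (SE), adjusted p = 0.00583, and higher in CM than in E by 3.27 ± 0.32 (SE), adjusted p = 1.57e-06. These are log2 fold changes. Sdhb had the largest log2 fold change of the complex in AGHMT against GHMT and in CM against E. It had 13, 26 and 19.96 CPM in AGHMT, 0, 2.61 and 4.12 CPM in GHMT, 236, 165 and 456 CPM in CM and 22.3, 21.8 and 12 CPM in E. The GHMT libraries were the lowest and did not overlap with any other group (log2 fold change 2.93 ± 0.62 (SE), adjusted p = 0.00724 in AGHMT against GHMT, -2.86 ± 0.62 (SE), adjusted p = 0.00181 in GHMT against E, and 3.93 ± 0.50 (SE), adjusted p = 1.9e-05 in CM against E). These GHMT values rest on 11 reads.

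The membrane anchors behaved unlike each other. Sdhc had 9.45, 13.9 and 13.3 CPM in AGHMT, 1.31, 3.13 and 3.44 CPM in GHMT, 74.3, 50.02 and 282 CPM in CM and 48.4, 25.8 and 4.34 CPM in E, with a wide spread inside CM and E. It fell in GHMT against E, to a difference of -3.21 ± 0.92 (SE), adjusted p = 0.0097, and did not pass in AGHMT against GHMT (2.11, adjusted p = 0.122). In CM against E it passed with the smallest log2 fold change of the complex, 2.37 (adjusted p = 0.0159), and lost that call without CM 3 or without E 2. Sdhd, in contrast, had closely similar values in the treated MEF groups, at 65.6, 94.6 and 70.1 CPM in AGHMT and 72.1, 81.3 and 67.4 CPM in GHMT, beside 540.3, 620.0 and 399.9 CPM in CM and 55, 52.5 and 46 CPM in E. Its log2 fold change in AGHMT against GHMT was 0.06 (adjusted p = 0.893), the smallest of the complex, and in GHMT against E 0.53 (adjusted p = 0.114), while in CM against E it rose by 3.35 ± 0.29 (SE), adjusted p = 4.36e-07. In AGHMT against E none of the 4 genes passed. The medians of the complex were 1.96 in AGHMT against GHMT, -2.01 in GHMT against E, 0.33 in AGHMT against E and 3.31 in CM against E.

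Complex III is a dimer in which electrons run from ubiquinone through the Rieske iron-sulphur protein Uqcrfs1 and cytochrome c1 (Cyc1) to cytochrome c, on a scaffold of the core proteins Uqcrc1 and Uqcrc2 and small subunits. Of its 9 nuclear genes, 3 were higher and none lower in AGHMT against GHMT, 1 higher and 4 lower in GHMT against E, 1 higher and 1 lower in AGHMT against E, and 9 higher in CM against E, with medians of 1.0, -2.12, -0.82 and 3.79. Of all tested genes, 13.2% were higher and 4.58% lower in AGHMT against GHMT, and 19.8% higher and 32.9% lower in GHMT against E. In AGHMT against E 21.9% were higher and 24.6% lower, and in CM against E 19.5% were higher. Uqcrc2, the most abundant, had 221, 283 and 164 CPM in AGHMT, 11.8, 30.2 and 72.2 CPM in GHMT, 1531, 1494 and 901 CPM in CM and 100.4, 107 and 132 CPM in E. The 3 GHMT values spread over a wide range and all lay below the other groups. Uqcrc2 was higher in AGHMT than in GHMT by 2.51 ± 0.47 (SE), adjusted p = 0.0037, and lower than in E in GHMT, at -1.54 ± 0.46 (SE), adjusted p = 0.0122, the second call being lost without GHMT 2. The other core protein, Uqcrc1, had 7.07, 9.85 and 6.16 CPM in AGHMT, 0, 0.521 and 1.37 CPM in GHMT, 126, 76.7 and 552 CPM in CM and 31.6, 14.1 and 8.74 CPM in E. GHMT held 3 reads of it in all, so the change is given as a ratio of pooled levels, which was 10.7 (95% interval 3.63 to 52.1) for AGHMT over GHMT and 0.0342 (95% interval 0.00704 to 0.10) for GHMT over E. Here and below, intervals of pooled ratios cover counting error only and leave out the spread between libraries.

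The 2 electron carriers of complex III differed in their course. Uqcrfs1 had 43.7, 63.2 and 59.5 CPM in AGHMT, 51.1, 101 and 3.44 CPM in GHMT, 405, 506 and 458 CPM in CM and 22.9, 19.3 and 19 CPM in E. GHMT 3 lay far below the other GHMT libraries, and with all libraries no comparison among the MEF groups passed (0.09, adjusted p = 0.93 in AGHMT against GHMT and 1.35, adjusted p = 0.0788 in GHMT against E). Without GHMT 3 it passed in GHMT against E at 1.89 (adjusted p = 4.55e-04), and without GHMT 2 or GHMT 3 it also passed in AGHMT against E. Cyc1 had 2.31, 3.3 and 1.91 CPM in AGHMT, 0, 2.08 and 1.37 CPM in GHMT, 81.9, 34 and 436 CPM in CM and 29.8, 16.9 and 2.63 CPM in E. It was lower than in E in both treated groups, at -2.71 (adjusted p = 0.0209) for AGHMT and at -3.55 (adjusted p = 0.0238) for GHMT, and higher in CM than in E by 3.48 (adjusted p = 0.00507). The call in AGHMT against E was lost without AGHMT 1, AGHMT 3 or E 1, that in GHMT against E without any 1 of the 3 GHMT libraries, and that in CM against E without CM 3.

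Among the small subunits of complex III, Uqcrb, the ubiquinone-binding protein, was the only one that rose above E in both treated groups. It had 98.4, 101 and 147 CPM in AGHMT, 47.2, 59.4 and 65.3 CPM in GHMT, 288, 310.3 and 107 CPM in CM and 13.5, 23.7 and 24.4 CPM in E, and no library of AGHMT or GHMT overlapped with E. The log2 fold change was 2.49 ± 0.40 (SE), adjusted p = 2.85e-04 in AGHMT against E and 1.49 ± 0.40 (SE), adjusted p = 0.00676 in GHMT against E. In GHMT against E, a correction for the GC content of transcripts moved it to -0.10 (adjusted p = 0.775), and leaving out AGHMT 3 or E 1 also ended the call. Uqcrh, the hinge protein that helps cytochrome c1 bind cytochrome c, had 50.7, 86.7 and 30.7 CPM in AGHMT, 5.24, 5.73 and 13.7 CPM in GHMT, 932, 292 and 727 CPM in CM and 116, 150.1 and 30.6 CPM in E. It was higher in AGHMT than in GHMT by 2.73 (adjusted p = 0.0138), a call lost without AGHMT 2 or GHMT 2, lower in GHMT than in E, at -3.55 (adjusted p = 7.04e-04), and showed the smallest log2 fold change of the complex in CM against E, 2.72 (adjusted p = 0.00162). Uqcr11 had the largest, at 5.93 ± 1.10 (SE), adjusted p = 5.01e-04, from 14.8, 25.5 and 439 CPM in CM and 4.05, 1.59 and 2.14 CPM in E. CM 3 lay far above the other CM libraries, and without CM 3, GHMT 1 and E 1 the value was 3.42 (adjusted p = 9.66e-04). The remaining small subunits, Uqcrq and Uqcr10, were higher in CM than in E (log2 fold change 4.89, adjusted p = 7.61e-05 and 4.43, adjusted p = 4.21e-04) and did not pass in AGHMT against GHMT (0.56, adjusted p = 0.716 and 1.5, adjusted p = 0.382).

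Cytochrome c, the soluble carrier between complexes III and IV that also triggers apoptosis once released from mitochondria, followed another course than most of the complexes' subunits. Its gene Cycs had 43.3, 31.2 and 37 CPM in AGHMT, 41.9, 49 and 33 CPM in GHMT, 146, 257 and 69.6 CPM in CM and 2.53, 6.19 and 5.66 CPM in E. The treated groups overlapped with each other, lay above every E library and below every CM library. The log2 fold change was -0.15 ± 0.45 (SE), adjusted p = 0.833 in AGHMT against GHMT, 2.96 ± 0.47 (SE), adjusted p = 2.59e-04 in AGHMT against E, 3.11 ± 0.49 (SE), adjusted p = 1.7e-04 in GHMT against E and 5.05 ± 0.52 (SE), adjusted p = 2.5e-06 in CM against E. The 3 calls against E held under every alternative tried. With the GC correction the values against E were 1.71 in AGHMT and 1.18 in GHMT.

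Complex IV is built around a catalytic core made from mitochondrial DNA, and its nuclear subunits surround that core and bear on its stability and regulation. Of its 13 nuclear genes, 4 were higher and none lower in AGHMT against GHMT, 1 higher and 5 lower in GHMT against E, 4 higher and 4 lower in AGHMT against E, and 10 higher and none lower in CM against E, with medians of 1.19, -1.37, 0.88 and 3.87. Over all tested genes, 13.2% were higher in AGHMT against GHMT and 32.9% lower in GHMT against E. In AGHMT against E 21.9% were higher and 24.6% lower, and in CM against E 19.5% were higher. Cox6c was the most abundant, with 222, 267 and 408 CPM in AGHMT, 81.3, 165 and 142 CPM in GHMT, 1673, 2178 and 1245 CPM in CM and 71.2, 71.5 and 110.3 CPM in E. Its order of groups was CM, AGHMT, GHMT and E, with no overlap between AGHMT and GHMT. It was higher in AGHMT than in GHMT by 1.20 ± 0.35 (SE), adjusted p = 0.0293, a call lost without AGHMT 2 or GHMT 1, and higher in AGHMT than in E by 1.83 ± 0.35 (SE), adjusted p = 9.84e-04. Cox5a, a matrix-side subunit, had the largest log2 fold change of the complex in AGHMT against GHMT, 2.58 ± 0.79 (SE), adjusted p = 0.0365. It had 12.6, 31.3 and 12.5 CPM in AGHMT, 0, 0.521 and 8.25 CPM in GHMT, 123, 152 and 205 CPM in CM and 5.25, 5.88 and 13.3 CPM in E. GHMT 3 was the GHMT library nearest to AGHMT, and the call was lost without AGHMT 1, AGHMT 2, GHMT 1, GHMT 2, CM 1 or E 2.

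Cox4i1, the widely expressed form of subunit IV, to which ATP binds in the regulation of the enzyme, had 4.23, 6.44 and 3.93 CPM in AGHMT, 1.31, 2.61 and 2.06 CPM in GHMT, 96.7, 71.1 and 1006 CPM in CM and 62, 24.6 and 8.22 CPM in E. It was lower than in E, at -2.70 (adjusted p = 0.0209) for AGHMT and at -3.88 (adjusted p = 0.0125) for GHMT, and higher in CM than in E by 3.63 (adjusted p = 0.00416). CM 3 and E 1 were the highest libraries of their groups. The call in CM against E was lost without CM 3, that in AGHMT against E without AGHMT 1, AGHMT 3 or E 1, and that in GHMT against E without GHMT 2. Cox6b1, on the intermembrane side where the monomers of the enzyme dimer meet, was higher in AGHMT than in GHMT (1.93, adjusted p = 0.0249) and lower in GHMT than in E (-1.60, adjusted p = 0.0212). The first call was lost without AGHMT 2, GHMT 1 or GHMT 2, the second without GHMT 1, GHMT 2 or E 2, and both without GHMT 1, CM 3 and E 1 together. Cox7b was higher in AGHMT than in GHMT (1.04, adjusted p = 0.0433) and than in E (0.88, adjusted p = 0.0346). The first call was lost without AGHMT 2, GHMT 2, CM 1 or E 2, the second without AGHMT 2, AGHMT 3, E 2 or E 3, and the GC correction turned the value against E to -0.34. Cox5b rose in CM against E (4.16, adjusted p = 6.35e-04) and did not pass in AGHMT against GHMT (2.31, adjusted p = 0.154), and Cox7c passed in neither (1.45, adjusted p = 0.138 and 0.43, adjusted p = 0.738).

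For subunits VIa, VIIa and VIII, complex IV of heart and skeletal muscle uses the products of Cox6a2, Cox7a1 and Cox8b, and most other tissues those of Cox6a1, Cox7a2 and Cox8a. In GRCm38 (the build of the files, mm10), Cox6a2 lies at chr7:128205435-128206387 on the minus strand, Cox7a1 at chr7:30184144-30186078 on the plus strand and Cox8b at chr7:140898945-140900446 on the minus strand. The promoter windows below, from RefSeq (GRCm38.p6), run from 250 bases before the annotated start to 50 after it on the gene's strand, and are shown because the isoform pairs and Cycs set the groups apart. Cox7a1 and Cox8b are the heart isoforms with a window in the table, Cox7a2 and Cox8a are their ubiquitous partners, and Cycs rose in all 3 other groups against E. The windows lie at chr7:30183921-30184220 (plus strand) for Cox7a1, chr7:140900397-140900696 (minus strand) for Cox8b, chr9:79759804-79760103 (minus strand) for Cox7a2, chr19:7217567-7217866 (minus strand) for Cox8a and chr6:50566520-50566819 (minus strand) for Cycs. Capitals mark matches to the GATA letters AGATAA in Cox7a1, the GABP (Ets family) letters CCGGAAG in Cox8a and the NRF1 letters GCGCNTGCG in Cycs, on either strand.
Cox7a1: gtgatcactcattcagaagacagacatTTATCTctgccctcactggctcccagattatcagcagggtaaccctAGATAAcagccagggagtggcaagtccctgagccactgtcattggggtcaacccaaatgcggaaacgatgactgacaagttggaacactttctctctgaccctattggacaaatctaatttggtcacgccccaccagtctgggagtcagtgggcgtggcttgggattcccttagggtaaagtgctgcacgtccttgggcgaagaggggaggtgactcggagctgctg
Cox8b: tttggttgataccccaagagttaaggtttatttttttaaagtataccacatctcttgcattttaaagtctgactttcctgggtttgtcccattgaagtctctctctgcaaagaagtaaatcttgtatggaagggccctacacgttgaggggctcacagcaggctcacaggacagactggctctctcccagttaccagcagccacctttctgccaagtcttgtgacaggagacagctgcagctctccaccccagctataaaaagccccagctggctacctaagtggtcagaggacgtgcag
Cox7a2: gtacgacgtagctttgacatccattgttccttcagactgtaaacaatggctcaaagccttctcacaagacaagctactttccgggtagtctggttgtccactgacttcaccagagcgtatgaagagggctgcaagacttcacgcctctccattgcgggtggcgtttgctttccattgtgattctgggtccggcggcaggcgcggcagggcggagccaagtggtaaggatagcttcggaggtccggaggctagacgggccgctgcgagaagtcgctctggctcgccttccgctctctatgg
Cox8a: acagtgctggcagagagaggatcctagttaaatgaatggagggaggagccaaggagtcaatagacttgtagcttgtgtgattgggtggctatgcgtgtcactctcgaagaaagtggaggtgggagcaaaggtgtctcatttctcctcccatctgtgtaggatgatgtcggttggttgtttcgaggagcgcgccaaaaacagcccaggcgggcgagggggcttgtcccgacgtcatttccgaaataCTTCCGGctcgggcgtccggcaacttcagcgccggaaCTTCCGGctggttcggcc
Cycs: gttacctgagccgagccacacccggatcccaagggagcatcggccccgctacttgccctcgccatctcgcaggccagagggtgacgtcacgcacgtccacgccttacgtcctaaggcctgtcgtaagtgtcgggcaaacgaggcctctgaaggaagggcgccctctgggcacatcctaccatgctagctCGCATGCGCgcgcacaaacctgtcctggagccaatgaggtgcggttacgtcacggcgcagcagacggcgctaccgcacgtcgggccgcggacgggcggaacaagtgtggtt

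Cox7a1 held 2 GATA matches, which began 223 bases before the start on the minus strand and 177 bases before it on the plus strand. Cox8a held 2 GABP matches, 5 bases before and 33 bases after the start, and Cycs held 1 NRF1 match, 61 bases before it. The windows of Cox8b and Cox7a2 held no match to any motif searched. Of the 41 genes, 32 had a window, and the share with each motif was set beside that over all 32851 windows of the table, both strands counted and overlaps between motifs allowed. Each member entered with 1 window, the first listed, whereas the full set was not cut to 1 window per gene. The 2 shares are therefore not counted alike. NRF1 and GABP are factors known to drive many nuclear genes of the respiratory chain. NRF1 letters occurred in 12 of the 32 (37.5%, against 6.31% of all windows) and GABP letters in 11 (34.4%, against 8.86%). The ERR letters TNAAGGTCA (for oestrogen-related receptors) occurred in 2 (6.25%, against 1.28%) and the GATA letters in 4 (12.5%, against 11.2%). The T-box letters AGGTGTGA and the MEF2 motif occurred in none of the 32, against 1.28% and 3.19% of all windows. The median GC content of the windows was 56.8% for the members and 52.7% for all, and no match was checked for binding here.

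Heart isoform transcripts were nearly absent in E, plentiful in CM and scarce in both treated groups. Cox6a2 had 0.999, 1.05 and 0.709 CPM in AGHMT, 0, 2.08 and 2.06 CPM in GHMT, 41.5, 96.2 and 1608 CPM in CM and 0.318, 0.203 and 0.153 CPM in E, while Cox6a1 had 3.92, 4.68 and 2.24, 3.93, 4.17 and 4.81, 12.6, 6.44 and 49.6 and 26.2, 27.2 and 5.81 CPM in the same order of groups. CM 3 held far more Cox6a2 than the other CM libraries. Cox6a2 was higher in CM than in E by 11.23 ± 1.36 (SE), adjusted p = 1.17e-05, and by 8.53 (adjusted p = 1.7e-06) without GHMT 1, CM 3 and E 1. It did not pass in AGHMT against GHMT, at -0.84 (adjusted p = 0.737), the smallest value of the complex, nor in AGHMT against E, at 1.93 (adjusted p = 0.172), nor in GHMT against E, at 2.78 (adjusted p = 0.195). Without those 3 libraries, and without CM 3 alone, it passed in both comparisons with E. The values without the 3 libraries were 2.30 (adjusted p = 0.00654) for AGHMT and 3.47 (adjusted p = 0.00569) for GHMT. Cox6a1 was lower than in E, at -2.45 (adjusted p = 0.0151) for AGHMT and at -2.19 (adjusted p = 0.0363) for GHMT, calls that the GC correction ended, and its value in CM against E was 0.21 (adjusted p = 0.837).

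Cox7a1 was the heart isoform that passed against E in all 3 other groups. It had 4.0, 6.0 and 2.24 CPM in AGHMT, 1.31, 2.08 and 5.5 CPM in GHMT, 110.1, 108 and 1013 CPM in CM and 0.435, 0.135 and 0.0917 CPM in E, with no overlap between E and the rest. The log2 fold change was 4.03 ± 0.89 (SE), adjusted p = 0.00272 in AGHMT against E, 3.65 ± 1.22 (SE), adjusted p = 0.0218 in GHMT against E and 10.68 ± 1.11 (SE), adjusted p = 2.68e-06 in CM against E, and 0.38 (adjusted p = 0.817) in AGHMT against GHMT. The GHMT values rest on 13 reads, and that call was lost without GHMT 2 or GHMT 3. Its partner Cox7a2 had 7.3, 12.8 and 8.56 CPM in AGHMT, 5.24, 2.61 and 2.06 CPM in GHMT, 152, 80.3 and 282 CPM in CM and 57.9, 30.5 and 7.34 CPM in E. It was lower than in E in GHMT (-3.41, adjusted p = 0.0027) under every alternative tried and in AGHMT (-1.74, adjusted p = 0.0291) with the call lost without AGHMT 1, AGHMT 3, E 1 or E 2, and higher in CM than in E (2.42, adjusted p = 0.00503).

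Cox8b showed the largest log2 fold change of all members in CM against E, 11.60 ± 0.97 (SE), adjusted p = 3.38e-07. It had 0.538, 1.1 and 1.2 CPM in AGHMT, 0, 0.521 and 0 CPM in GHMT, 82.3, 37.5 and 253 CPM in CM and 0.0335, 0 and 0.0611 CPM in E, where the 3 E libraries held 4 reads in all. AGHMT lay above every E library, and the difference was 4.60 ± 0.89 (SE), adjusted p = 0.00105. GHMT held 1 read in all, and the ratio of pooled levels in AGHMT over GHMT was 4.09 (95% interval 0.701 to 165). Its partner Cox8a had 3.15, 4.79 and 2.29 CPM in AGHMT, 2.62, 1.56 and 2.06 CPM in GHMT, 14.9, 4.73 and 91.2 CPM in CM and 33, 26.6 and 4.31 CPM in E. Cox8a was lower than in E, at -2.64 (adjusted p = 0.0272) for AGHMT and at -3.42 (adjusted p = 0.0197) for GHMT. The AGHMT call was lost without any 1 of the AGHMT libraries, E 1 or E 2, and the GHMT call without GHMT 2 or GHMT 3. With the GC correction both calls ended, at -0.96 (adjusted p = 0.188) for AGHMT and -1.64 (adjusted p = 0.105) for GHMT. Its value in CM against E was 0.79 (adjusted p = 0.484).

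Within a library, the heart isoform's part of the reads of its pair does not depend on the scaling between libraries. For Cox6a2 it was 20.3% (11.3 to 32.2), 18.3% (11.4 to 27.1) and 24.1% (13.5 to 37.6) in AGHMT 1 to 3, 76.6% (73.4 to 79.7), 93.7% (92.1 to 95.1) and 97% (96.6 to 97.3) in CM 1 to 3 and 1.2% (0.723 to 1.87), 0.74% (0.272 to 1.6) and 2.56% (0.838 to 5.88) in E 1 to 3, with exact 95% intervals. For Cox7a1 it was 35.4% (27.7 to 43.7), 31.9% (27 to 37.1) and 20.7% (15.3 to 27) in AGHMT, 42% (40.3 to 43.6), 57.3% (55 to 59.5) and 78.2% (77.3 to 79.1) in CM and 0.745% (0.487 to 1.09), 0.441% (0.12 to 1.13) and 1.23% (0.255 to 3.57) in E. For Cox8b it was 14.6% (6.07 to 27.8), 18.7% (11.8 to 27.4) and 34.4% (22.9 to 47.3) in AGHMT, 84.7% (82.6 to 86.6), 88.8% (85.4 to 91.7) and 73.5% (71.5 to 75.4) in CM and 0.101% (0.0123 to 0.366), 0% (0 to 0.467) and 1.4% (0.17 to 4.96) in E. The AGHMT libraries thus lay between CM and E for all 3 pairs, without overlap. The GHMT libraries held only 3, 12 and 10 reads of the first pair, of which 0, 4 and 3 were Cox6a2, then 5, 9 and 11 reads of the second, of which 1, 4 and 8 were Cox7a1, and 2, 4 and 3 reads of the third, of which 0, 1 and 0 were Cox8b.

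Differences in the log2 ratio of heart to ubiquitous isoform were tested with an exact two-sided permutation test of 3 libraries against 3, whose smallest possible p is 0.1, with adjustment over the 18 comparisons made. In CM against E the ratio was higher by 9.13 for Cox6a2 over Cox6a1, 6.87 for Cox7a1 over Cox7a2 and 9.05 for Cox8b over Cox8a (p = 0.1 each, adjusted p = 0.138, exact test), with groups that did not overlap. In AGHMT against E the differences were 3.79, 4.99 and 5.02 in the same order of pairs, again without overlap and at that same smallest p. In GHMT against E they were 3.18 (exact p = 0.2, groups overlapping) and 5.98 (exact p = 0.1) for the first 2 pairs. No test is given for Cox8b over Cox8a in GHMT, since its 1 Cox8b read leaves the ratio to the prior count. In E that pair held 2, 0 and 2 Cox8b reads, so the size of its differences from E also leans on the prior count. The same holds for Cox6a2 over Cox6a1 in GHMT 1, with 0 Cox6a2 reads of 3. The AGHMT minus GHMT differences were 0.61 and -0.99 for the first 2 pairs (exact p = 1 and 0.5), and the groups overlapped. The design cannot reach p under 0.05 for any of these. Per kilobase of transcript, mean CM levels were 856 CPM for Cox6a2 and 40.1 CPM for Cox6a1, 1044 CPM for Cox7a1 and 260.4 CPM for Cox7a2, and 345 CPM for Cox8b and 67.2 CPM for Cox8a. CM 3 carried these means. Without it they were 101 CPM for Cox6a2 and 16.7 CPM for Cox6a1, 277 CPM for Cox7a1 and 177 CPM for Cox7a2, and 166 CPM for Cox8b and 17.8 CPM for Cox8a.

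**Figure D4:**
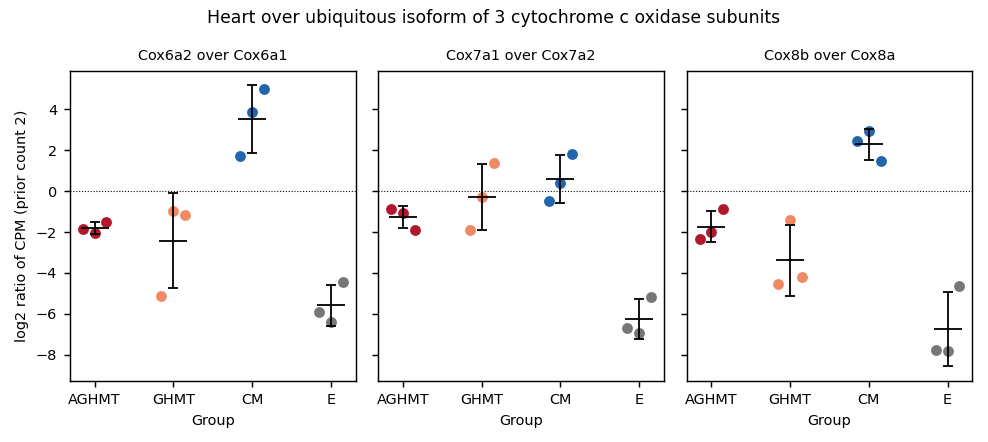
Log2 ratio of the heart to the ubiquitous isoform in each library for Cox6a2 over Cox6a1, Cox7a1 over Cox7a2 and Cox8b over Cox8a, with AGHMT, GHMT, CM and E from left to right. Points are libraries and bars are the mean ± SD (n = 3). CM libraries lie highest and E libraries lowest in all 3 panels in the mean, with AGHMT between them and GHMT spread widely. The GHMT points rest on 2 to 12 reads each, and those of Cox8b on 1 Cox8b read in all.

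ATP synthase turns proton flow into rotation of a ring of c subunits and of the central stalk, which drives ATP formation at the α and β subunits of F1. Of its 14 nuclear genes listed, 13 were tested. In AGHMT against GHMT 8 were higher and none lower, in GHMT against E 1 was higher and 6 lower, in AGHMT against E 5 were higher and 1 lower, and in CM against E 12 were higher and none lower, with medians of 2.05, -1.97, 0.50 and 3.55. Among all tested genes, 13.2% were higher in AGHMT against GHMT and 32.9% lower in GHMT against E. In AGHMT against E 21.9% were higher and 24.6% lower, and in CM against E 19.5% were higher. Atp5a1 (subunit α), the most abundant, had 467, 553 and 449 CPM in AGHMT, 34.1, 75.6 and 203 CPM in GHMT, 3461, 3201 and 3442 CPM in CM and 332, 265 and 214 CPM in E. GHMT 1 was the lowest library and GHMT 3 came near E 3, without overlap between AGHMT and GHMT. Atp5a1 was higher in AGHMT than in GHMT by 2.21 ± 0.46 (SE), adjusted p = 0.00602 and lower than in E in GHMT, at -1.36 ± 0.44 (SE), adjusted p = 0.0195, the second call being lost without GHMT 1 or GHMT 2. Atp5b (the catalytic subunit β) had 341, 459 and 346 CPM in AGHMT, 40.6, 93.8 and 124 CPM in GHMT, 3022, 2158 and 3199 CPM in CM and 508, 385 and 298 CPM in E. It was higher in AGHMT than in GHMT by 2.13 ± 0.37 (SE), adjusted p = 0.00239, lower in GHMT than in E, at -2.19 ± 0.37 (SE), adjusted p = 2.96e-04, and -0.06 (adjusted p = 0.905) in AGHMT against E, where the groups overlapped. Atp5c1 (subunit γ of the rotor) was higher in AGHMT than in GHMT (1.96, adjusted p = 0.00362) and than in E (1.26, adjusted p = 0.0093), the call against E being lost without E 1.

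Atp5d (subunit δ of the central stalk) had the lowest log2 fold change of all members in AGHMT against GHMT. It had 1.69, 1.32 and 1.8 CPM in AGHMT, 7.87, 10.9 and 7.56 CPM in GHMT, 11.8, 27.4 and 403 CPM in CM and 15.9, 5.54 and 3.55 CPM in E. Each AGHMT library lay below every GHMT library, and the log2 fold change was -2.47 ± 1.09 (SE), adjusted p = 0.125, which did not pass. It passed without GHMT 1, CM 3 and E 1, at -2.53 (adjusted p = 0.010), and with the GC correction, at -2.50 (adjusted p = 0.0252). Its call in CM against E (4.14, adjusted p = 0.00405) was lost without CM 3. Atp5e (subunit ε) had 2 GHMT reads and a ratio of pooled levels of 8.4 (95% interval 2.29 to 69.8) in AGHMT over GHMT. The interval covers counting error only, and Atp5e did not pass in that comparison.

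Among the Fo and stalk subunits, Atp5f1 (subunit b of the outer stalk) rose above E in both treated groups. It had 141, 159.9 and 166 CPM in AGHMT, 115, 127 and 131 CPM in GHMT, 561, 637 and 431 CPM in CM and 40.5, 54.2 and 73.8 CPM in E, with AGHMT above GHMT, GHMT above E and no overlap. The log2 fold change was 1.47 ± 0.28 (SE), adjusted p = 9.71e-04 in AGHMT against E, 1.15 ± 0.28 (SE), adjusted p = 0.00395 in GHMT against E and 0.32 (adjusted p = 0.444) in AGHMT against GHMT. Its value in GHMT against E changed sign under total-count scaling, at -0.23, and lost its call without AGHMT 3 or E 1. Atp5h (subunit d) was higher in AGHMT than in GHMT (2.48, adjusted p = 0.0126) and lower in GHMT than in E (-1.97, adjusted p = 0.012), and both calls were lost without GHMT 2. Atp5j (coupling factor 6) was higher in AGHMT than in GHMT (1.60, adjusted p = 0.0357) and than in E (1.18, adjusted p = 0.0484), the first call being lost without AGHMT 1, AGHMT 2, GHMT 1, GHMT 2, CM 1 or E 2 and the second without any 1 library of AGHMT or E, CM 1 or CM 2. Atp5j2 (subunit f) was lower in AGHMT than in E (-2.82, adjusted p = 0.0498), a call lost without E 1 or any 1 library of AGHMT or GHMT. Atp5k (subunit e), with 3 GHMT reads, had a pooled ratio of 4.29 (95% interval 1.44 to 21) in AGHMT over GHMT. The interval covers counting error only, and Atp5k did not pass in that comparison.

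The proton-carrying c ring is encoded by 3 genes, Atp5g1, Atp5g2 and Atp5g3, whose mature proteins are the same and whose import sequences differ. Atp5g3 had 152, 161 and 177 CPM in AGHMT, 17, 33.9 and 66 CPM in GHMT, 1013, 1162 and 999 CPM in CM and 40.9, 39 and 67.9 CPM in E. AGHMT lay above GHMT and E without overlap, while GHMT overlapped with E. It was higher in AGHMT than in GHMT by 2.04 ± 0.39 (SE), adjusted p = 0.00413, higher in AGHMT than in E by 1.73 ± 0.37 (SE), adjusted p = 0.0023, and higher in CM than in E by 4.42 ± 0.42 (SE), adjusted p = 1.08e-06, the largest value of the complex. Atp5g1 had 7.53, 7.05 and 6.6 CPM in AGHMT, 0, 0 and 1.37 CPM in GHMT, 26.2, 22.4 and 46.2 CPM in CM and 2.46, 1.83 and 2.08 CPM in E. With 2 GHMT reads in all, its pooled ratio in AGHMT over GHMT was 14.5 (95% interval 3.98 to 120.2), and it was higher in AGHMT than in E by 1.73 (adjusted p = 0.018). That call was lost without AGHMT 1, E 1 or E 2 and with the GC correction, at 1.26 (adjusted p = 0.0658). The pseudogene Gm10039 held 33 reads against 347 of Atp5g1 in AGHMT, 2 against 2 in GHMT, 984 against 844 in CM and 516 against 269 in E. Atp5g2 had 1.08, 1.49 and 2.18 CPM in AGHMT, no read in GHMT, 3.2, 2.72 and 1.72 CPM in CM and 2.06, 3.35 and 2.35 CPM in E. Against a floor of 3 pooled reads, Atp5g2 was at least 2.26-fold higher in AGHMT than in GHMT and at least 3.38-fold lower in GHMT than in E, and its log2 fold change in CM against E was -0.01 (adjusted p = 0.994).

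Counted per kilobase, Atp5g3 supplied nearly all subunit c transcripts. Its mean share was 98.4% ± 0.161 in AGHMT, 99.9% ± 0.184 in GHMT, 99.3% ± 0.174 in CM and 94.1% ± 2.35 in E (SD, n = 3 libraries each), and that of Atp5g2 was 0.929% ± 0.255 in AGHMT, 0% in GHMT, 0.236% ± 0.0707 in CM and 5.25% ± 2.28 in E. The differences of AGHMT, GHMT and CM from E in either share had groups that did not overlap and the smallest exact p of 0.1 (adjusted p = 0.129). GHMT had 13, 65 and 98 reads of the 3 genes together. The principal transcript taken for Atp5g1 is 4715 bases long, which makes its value per kilobase doubtful, and most 50-base windows of Atp5g2 also occur elsewhere among annotated transcripts.

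The subunits outside the list of 41 and the factors that assemble the complexes were counted beside them. Of 11 other nuclear subunits, 8 were tested, and 3 were higher and none lower in AGHMT against GHMT, 1 higher and 5 lower in GHMT against E, 2 higher and 4 lower in AGHMT against E, and 7 higher and none lower in CM against E, with medians of 1.19, -2.65, -0.32 and 2.18. The shares over all tested genes were 13.2% higher in AGHMT against GHMT and 32.9% lower in GHMT against E. In AGHMT against E 21.9% were higher and 24.6% lower, and in CM against E 19.5% were higher. The small ATP synthase subunit gene 2010107E04Rik (a proteolipid) had 107, 91.8 and 64.9 CPM in AGHMT, 3.93, 9.38 and 13.1 CPM in GHMT, 589, 677 and 334 CPM in CM and 51.2, 42.2 and 43.8 CPM in E, and rose in AGHMT against GHMT by 3.24 ± 0.41 (SE), adjusted p = 4.02e-04. Cox7a2l was higher in AGHMT than in GHMT (2.57, adjusted p = 0.00692), lower in AGHMT than in E (-1.72, adjusted p = 0.00431) and lower in GHMT than in E (-4.29, adjusted p = 3.06e-05). Atp5s, a coupling factor, was the 1 gene of this list higher in GHMT than in E. It had 17, 14.5 and 15.1 CPM in AGHMT, 44.6, 30.2 and 33.7 CPM in GHMT, 14.5, 20.03 and 8.59 CPM in CM and 2.66, 2.87 and 2.94 CPM in E, and its log2 fold change was 3.67 ± 0.46 (SE), adjusted p = 2.88e-05. Usmg5, a small subunit of the membrane part, was called in AGHMT against GHMT as the third gene and had no read in GHMT.

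Of 35 assembly factors, 31 were tested, and 9 were higher and none lower in AGHMT against GHMT, 3 higher and 12 lower in GHMT against E, 4 higher and 4 lower in AGHMT against E, and 11 higher and none lower in CM against E, with medians of 1.49, -1.66, 0.07 and 1.47. Shares over all tested genes were 13.2% higher in AGHMT against GHMT, and 19.8% higher and 32.9% lower in GHMT against E. In AGHMT against E 21.9% were higher and 24.6% lower, and in CM against E 19.5% were higher. Uqcc1, needed for the making of cytochrome b of complex III, was higher in AGHMT than in GHMT by 3.83 ± 0.57 (SE), adjusted p = 0.00106, with 17.4, 27.4 and 16.5 CPM in AGHMT and 1.31, 2.08 and 0.687 CPM in GHMT. Lrpprc, which stabilises mitochondrial messenger RNAs and is linked to complex IV deficiency, was also higher (1.94, adjusted p = 0.0164), with 56, 56.5 and 51.2 CPM in AGHMT and 1.31, 20.8 and 17.2 CPM in GHMT.

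The subunits that come from mitochondrial DNA took another course than the nuclear ones. The cytochrome b transcript mt-Cytb was higher than in E by 3.22 (adjusted p = 1.83e-04) in AGHMT, 3.35 (adjusted p = 1.09e-04) in GHMT and 4.36 (adjusted p = 1.03e-05) in CM, and mt-Co1, which codes for the catalytic subunit of complex IV, by 3.96 (adjusted p = 4.68e-06), 3.31 (adjusted p = 1.77e-05) and 4.08 (adjusted p = 1.86e-06) in the same order. In AGHMT against GHMT their values were -0.13 (adjusted p = 0.858) and 0.65 (adjusted p = 0.216). The counts of mt-Co2, mt-Co3 and mt-Atp6 reached at most 49.8 CPM, far below mt-Cytb and mt-Co1, and mt-Atp8 was not tested. The nuclear members of complexes III to V (36 genes) had 1.14, 2.11 and 1.5 reads per 100 reads of the 6 mitochondrially encoded partners in AGHMT 1 to 3, 0.269, 0.960 and 0.840 in GHMT, 6.21, 4.41 and 15.9 in CM and 20.7, 11.9 and 7.02 in E. All treated libraries lay below all CM and E libraries in this ratio, and all AGHMT libraries above all GHMT libraries. As most reads of the partners came from mt-Cytb and mt-Co1, the ratio rests on those 2 transcripts.

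The most similar group of genes, the 35 nuclear subunits of complex I, gave 14 higher and none lower in AGHMT against GHMT, 2 higher and 16 lower in GHMT against E, 6 higher and 5 lower in AGHMT against E, and 33 higher and none lower in CM against E, with medians of 1.57, -2.54, -0.40 and 3.81. Cytosolic ribosomal proteins, another group of short transcripts, were tested for 75 of 83 genes, and 17 of the 83 had no read in GHMT. Their sums were 931 to 1066 CPM in AGHMT, 548 to 775 in GHMT, 1553 to 2842 in CM and 2468 to 4937 in E. They gave 8 higher and none lower in AGHMT against GHMT, 1 higher and 47 lower in GHMT against E, 2 higher and 47 lower in AGHMT against E, and 1 higher and 11 lower in CM against E, with medians of 0.79, -3.45, -2.19 and -0.79. Beside both lists, 13.2% of all tested genes were higher in AGHMT against GHMT, and 19.8% higher and 32.9% lower in GHMT against E. In AGHMT against E 21.9% were higher and 24.6% lower, and in CM against E 19.5% were higher and 22.5% lower. These counts are set side by side without a test of the difference.

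Differences of both treated groups against E and against CM moved with the GC content of the transcripts, among the members and among all genes. Across the 40 members, Spearman's correlation of log2 fold change with GC was -0.07 in AGHMT against GHMT, -0.44 in GHMT against E, -0.56 in AGHMT against E, -0.02 in CM against E, -0.51 in GHMT against CM and -0.56 in AGHMT against CM. Across 14982 genes it was 0.20, -0.44, -0.50, 0.11, -0.47 and -0.59 in the same order. Genes share their libraries and are not independent replicates, so these are descriptions. In AGHMT against E, members below 45% GC had a median log2 fold change of 1.74 (4 genes, against 0.91 over all genes of that range), those of 45 to 50% had 1.15 (12 genes, against 0.08), those of 50 to 55% had 0.07 (13 genes, against -0.75) and those of at least 55% had -2.21 (11 genes, against -2.05). In GHMT against E the medians were 0.67, -0.93, -1.97 and -2.45, against 0.87, -0.56, -2.05 and -3.31 over all genes. In CM against E they were 3.70, 3.51, 3.64 and 3.63, against -0.44, -0.43, -0.23 and 0.20, so that the members' median stood above that of all genes in each range. In AGHMT against GHMT they were 1.02, 1.88, 2.04 and 1.19, against -0.04, 0.59, 1.13 and 1.16. In the last range of that comparison the members' median was close to that of all genes. Under the GC correction, 15 of the 17 members called higher in AGHMT against GHMT passed again, 3 of 4 higher and 11 of 18 lower in GHMT against E, 9 of 11 higher and 0 of 6 lower in AGHMT against E, and 36 of 36 higher in CM against E. Against CM, 35 of 39 lower calls passed again for GHMT and 35 of 38 for AGHMT. The share of all called genes that passed again is not given, so these counts do not set the members apart. Of the 6 lost in AGHMT against E, Atp5j2 had -2.85 (adjusted p = 0.0634) and Cox7a2 -1.36 (adjusted p = 0.0572), against -2.82 and -1.74 without it, while Cox4i1, Cox6a1, Cox8a and Cyc1 moved to between -1.37 and -0.80.

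**Figure D5:**
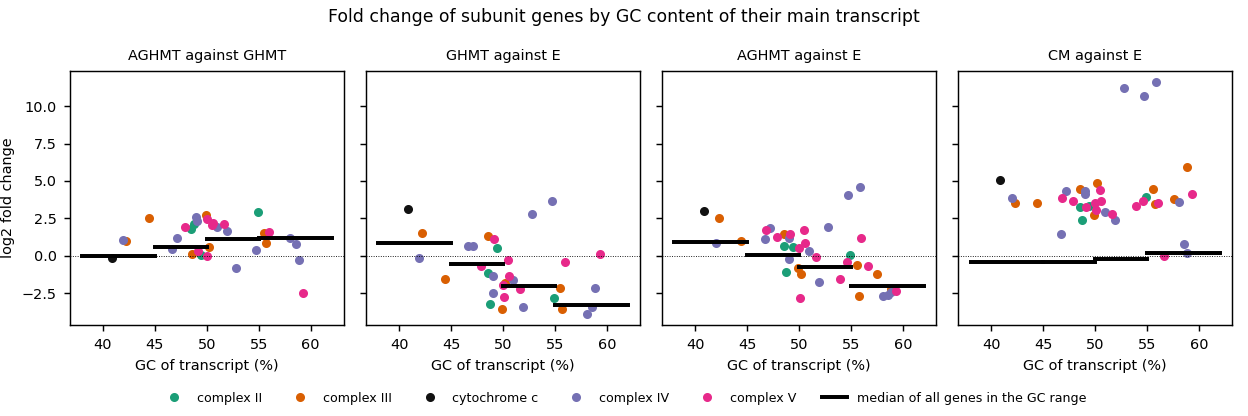
Log2 fold change of each member against the GC content of its principal transcript (percent) in AGHMT against GHMT, GHMT against E, AGHMT against E and CM against E. Points are members, and black bars are the median of all tested genes in 4 ranges of GC. The 7 genes that had at most 3 pooled reads in GHMT are left out of the panels with GHMT only. In both comparisons of treated cells with E, members and all genes decline with GC. In CM against E most members lie above the bars, with Cox6a1 on its bar and Atp5g2 below it.

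Some members share sequence with processed pseudogenes or with other annotated genes, and reads that fit several places were not counted. Windows were matched on both strands, so a gene that overlaps a member at the same place also counts below. Cut into windows of 50 bases, 10 of the 41 transcripts had more than 20% of their windows in another annotated transcript and 16 had none. The share was 87.4% for Atp5g2, 84.8% for Atp5l, 53.0% for Cox7c, 47.9% for Atp5h, 43.4% for Uqcrb, 38.7% for Atp5f1, 32.0% for Cox5a, 28.5% for Cycs, 25.9% for Cox5b and 24.8% for Uqcrc2. Levels of the genes that share windows with pseudogenes are therefore uncertain, and those of Atp5g2 and Atp5l most of all. Uqcrc2 and Cox5b shared windows with no pseudogene, only with a protein-coding gene (Pdzd9 and Gm11273). What that sharing does to their counts was not tested. The counting gave the Atp5g2 pseudogene Gm10175 more reads than the gene itself in each group, at 279 against 81 in AGHMT, 9 against 0 in GHMT, 246 against 80 in CM and 736 against 299 in E. For Atp5h, pseudogene Gm10250 held 741 reads against 1375 of the gene in AGHMT, 14 against 21 in GHMT, 7677 against 6750 in CM and 3697 against 2414 in E.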

How the data were processed

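RNA sequencing was measured in 12 libraries. Per the labels' protocols, RNA was taken up in TRIzol and libraries were made with a TruSeq Stranded RNA LT kit. Per the submitters' processing notes, Bowtie2 2.0.6, HTSeq, DESeq and mm10 were used. Neither the strand setting nor the version of the annotation is given in the sources used here. The authors deposited read counts per Ensembl gene for each library, and reads in no gene or in several places stayed out of the library sizes. A deposited table of normalized signal, counts divided by 1 size factor per library, was used for alternatives: 100% of its values came out as whole reads (tolerance 0.001), and the recovered reads called 2678, 7923, 6995, 6312, 8818 and 7242 genes in AGHMT against GHMT, GHMT against E, AGHMT against E, CM against E, GHMT against CM and AGHMT against CM.

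Counts were tested in edgeR 4.0.16 (R 4.3.3) after filterByExpr (minimum count 10, minimum total 15) and TMM scaling, with all 12 libraries in 1 robust quasi-likelihood fit of group and Benjamini-Hochberg adjustment over all genes. CPM values are scaled by TMM, and per-library log2 values use a prior count of 2. Where a group held 1 to 3 pooled reads, a pooled ratio with its exact interval replaces the fitted value, and a group without reads is set at 3 pooled reads. Such an interval covers counting error only and leaves out the spread between libraries. Pairs of replicates differed beyond counting error (chi-square per degree of freedom at least 15.0). Symbols, positions, length and GC come from GENCODE M21 (GRCm38), which matched 42548 of 43629 identifiers. On counts simulated for AGHMT against GHMT (14502 genes tested), the test called 99% of genes changed by 3 and 55% of those changed by 1.5 on the log2 scale, and 0.0769% of unchanged genes. The simulation gave all genes the same fixed dispersion (spread beyond counting error) and unchanged genes the same mean in every group. Only genes above a minimum level were changed. Its rates therefore do not describe members with few GHMT reads or a wide spread between libraries.

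The rule for the members uses no measured value, but the members and lists were chosen with earlier results of these data known. Values per library are given for the isoform pairs, the subunit c genes, Cycs, and in each complex the most abundant gene and those with the largest and smallest log2 fold change in AGHMT against GHMT and CM against E. Of the related lists up to 3 called genes with the largest change were eligible. Per-library values of Uqcrb, Cyc1, Cox4i1, Atp5b and Atp5f1 were added after their values were seen. Alternatives were edgeR with total counts or the size factors of DESeq2, TMM without mitochondrial genes, no filter, a filter of 1 CPM in 3 libraries, DESeq2 1.42.0, limma 3.58.1 on log2 of deposited values plus 1, a replicate block, fits of only the 2 groups concerned, GC and length offsets, thinning to the smallest library and each library left out. Leaving out GHMT 1, CM 3 and E 1 together, and the recovered reads, were added after seeing the data.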

Additional observations from a re-analysis of the deposited data

How the results depend on the processing

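Counts of members that passed in CM against E, GHMT against CM and AGHMT against CM stayed within 1.5 times of the values given under each alternative. In AGHMT against GHMT, the count higher was 11 with the length offset, 11 with only those groups in the fit and 10 with libraries thinned to the smallest, and the count lower was 1 with the GC offset, without a filter, with only those groups and without GHMT 1, CM 3 and E 1. In GHMT against E, the length offset gave 7 higher and 11 lower, and total counts 1 higher and 28 lower. In AGHMT against E, the count higher was 17 with only those groups, 7 with thinning and 4 with total counts. The count lower there was 0 with the GC offset, 3 with the length offset, 1 with limma, 12 without a filter, 10 with only those groups, 1 with thinning and 11 with total counts. For these counts the cause was not tested. Leaving out 1 library at a time gave 9 (without AGHMT 2) to 24 (without E 1) higher and 0 to 1 lower in AGHMT against GHMT, 2 to 5 higher and 8 (without GHMT 2) to 22 lower in GHMT against E, 8 to 17 higher and 0 (without AGHMT 1, AGHMT 3 or E 1) to 10 lower in AGHMT against E, and 31 to 38 higher in CM against E. The lowest of the last range was without CM 3, which ended the calls of Atp5d, Atp5j2, Cox4i1, Cyc1 and Sdhc. Calls over all genes moved in the same refits. They ran from 865 to 3851 higher and 91 to 1060 lower in AGHMT against GHMT. In GHMT against E they were 1658 to 3141 higher and 4215 to 5929 lower. In AGHMT against E they were 2431 to 3862 higher and 1670 to 4416 lower, and in CM against E 2413 to 3500 higher. All-gene counts under the other alternatives are not given here. Some values changed sign. Uqcrb in GHMT against E was -0.10 and Cox7b in AGHMT against E -0.34 with the GC offset, and Atp5f1 in GHMT against E was -0.23 with total counts. The Cox6a2 over Cox6a1 difference in AGHMT against GHMT was -0.29 from raw counts plus 0.5, -1.86 with thinning and -0.73 without GHMT 1, CM 3 and E 1, and ran from -0.73 (without GHMT 1) to 1.34 (without GHMT 2) with 1 library left out. The Cox7a1 over Cox7a2 difference in GHMT against CM was 0.55 without those 3 libraries, and the Cox8b over Cox8a difference in AGHMT against GHMT, which rests on 1 Cox8b read in GHMT, was -0.23 with thinning. No label says that the replicate numbers pair the libraries. Deviations of same-numbered libraries did not all correlate above 0.1, which cannot decide whether they were paired, with 3 libraries per group. With the replicate block, 13 members were higher in AGHMT against GHMT, 4 higher and 18 lower in GHMT against E, 9 higher and 5 lower in AGHMT against E and 34 higher in CM against E. The depth of GHMT, with 528 to 2005 reads of all members per library, limits every comparison with it.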
